A study of Mus musculus with 12 samples.

Results

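The comparison described here is that of constitutively active IKKβ with Control in mouse esophageal epithelium whose Stat3 gene was left working. It takes the 3 libraries labelled as active IKKβ and the 3 labelled as Control, 6 of the 12 libraries of the series, and every gene that passed a filter on low counts. All mice were C57BL/6 and 6 weeks old, and polyadenylated RNA was read from epithelium pulled mechanically off the stroma. Active IKKβ mice carried ED/L2-Cre+ with ROSA26-StopFL-Ikk2ca+/L, an allele that makes an always-active IKK2, the kinase also called IKKβ, once Cre has cut out its stop cassette. The ED/L2 promoter is an Epstein-Barr virus promoter that drives Cre in stratified squamous epithelium. Control mice carried ROSA26-StopFL-Ikk2ca+/L and Stat3L/L without Cre, so the stop cassette stayed in place and the floxed Stat3 stayed whole. The labels give floxed Stat3 for Control and none for active IKKβ, so the kinase, Cre itself and the floxed Stat3 alleles cannot be told apart in this contrast. A second set of 6 libraries, which shares no library with the first, is used further on: ED/L2-Cre+ with Stat3L/L, called Stat3 loss, and ED/L2-Cre+ with both ROSA26-StopFL-Ikk2ca+/L and Stat3L/L. Nothing in the labels ties each library to its own mouse, so every p-value measures the spread between these libraries, which may in part be technical.

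Total counts per library were 16.3, 17.9 and 30.2 (in units of 1e6) in Control and 19, 24.1 and 25.6 with active IKKβ. Krt4 and Krt13, keratins of the upper esophageal layers, took 5.22%, 6.22% and 13.9% of the counts in Control and 5.06%, 13.8% and 12.8% with active IKKβ, so 1 Control and 2 active IKKβ libraries were the richer ones in upper-layer RNA. The group means of that share, 8.45% and 10.6%, gave p = 1 in a two-sided exact permutation test, which cannot go below 0.1 with 3 against 3. The 10 esophageal epithelium markers, Krt5, Krt14, Trp63 and Sox2 among them, summed to 70500 CPM (counts per 1e6 counts, after scaling) or more in every library. Active IKKβ replicate 1 stood apart: its summed level of gastric markers was 1710 CPM against 2.56 or less in the other 5 libraries. Tff2, Tff1 and Muc5ac made up that sum, while the stomach acid pump gene Atp4a gave 3 counts there and Pgc, encoding pepsinogen C, none. Without active IKKβ replicate 1, 79 genes rose and 11 fell, and 76 of the 135 calls described next were kept. The 59 calls that were lost had adjusted p values from 0.0513 to 0.104 in that smaller fit.

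IKKβ is the catalytic subunit of the IκB kinase complex. In resting cells IκB proteins hold NF-κB dimers of the Rel family in the cytoplasm, and once IKKβ phosphorylates them they are degraded and the dimers enter the nucleus. Their targets include the genes of IκBα, A20 and other inhibitors that shut the signal off, together with chemokines, cytokines, antimicrobial proteins and survival factors. In squamous epithelia the pathway is best known for its part in inflammation and wound responses.

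Of 14134 genes tested with edgeR's quasi-likelihood test, 135 were called at a Benjamini-Hochberg adjusted p below 0.05, or 0.955%. Of these 127 rose (0.899%) and 8 fell (0.0566%). The rises were large: 51 were at least 8-fold, 32 lay between 4-fold and 8-fold, 32 between 2-fold and 4-fold, and 12 below 2-fold. Their median log2 fold change was 2.65, against 0.00478 over all genes tested. Many of these genes were close to silent in Control, with a mean under 1 CPM for 53 of the 127. In all 135 called genes the libraries of the groups did not overlap. These genes were called on the same libraries, so the separation adds no support to the calls. Over all genes tested, groups were apart upward in 9.34% and downward in 8.21%. Log2 fold changes lay above 0 in 50.7% and below 0 in 49.3%. At an unadjusted p below 0.05 stood 1842 genes, and DESeq2 called 323 higher (2.29%) and 119 lower (0.842%). Values below are CPM in the order replicate 1, 2 and 3, and changes are log2 fold changes ± SE with 3 libraries per group.

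**Figure D1:**
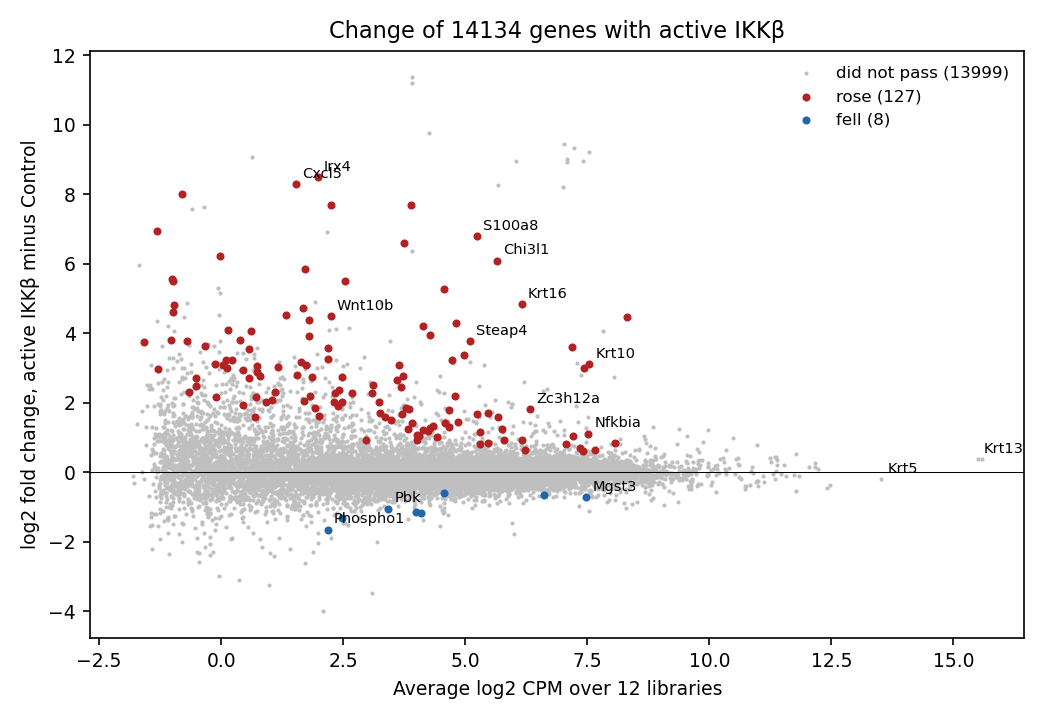
Log2 fold change of active IKKβ over Control against the average log2 CPM over 12 libraries, 1 point per gene, with the 127 genes that rose in red, the 8 that fell in blue and the other genes tested in grey. The called rises spread from low to high average level, and the called falls are few and smaller in size.

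The promoters of the genes that rose are the sequence in which the binding site of NF-κB can be looked for, so a few are shown here. In RefSeq windows from 250 bases before to 50 bases after each start (GRCm38.p6, the mm10 assembly), 104 of the 127 genes that rose had a window. The κB consensus, a motif of 10 bases searched on both strands, was held by 23 of them, 22.1%. Of all genes tested with such a window 1390 of 11098, or 12.5%, held it, and of the 7 genes that fell and had a window 0 did. Per window the shares were 20.1% and 10.6%, and median GC content was 57.3% for the genes that rose and 60.5% for all. A looser motif that fixes only 3 Gs at one end and 2 Cs at the other, with any 5 bases between, on either strand, and which every consensus match also meets, was held by 72.1% and 71.9%, nearly the same share. The stretches below are the 110 bases before the start of 8 genes picked from the 23 with a consensus match. Relb, Birc3, Zc3h12a, Cxcl5, Cxcl16 and Il23a, which also rose, were not among the 23, lacking either a match or a window. The stretches are printed 5′ to 3′ on the gene's strand, with κB matches in capitals. Overlapping matches share letters, and a match is a run of letters, not a shown binding site. They are the IκBα gene Nfkbia (chr12:55492648-55492757, minus strand), the NF-κB subunit gene Nfkb2 (chr19:46304627-46304736, plus strand) and the feedback genes Tnip1 (chr11:54962941-54963050, minus strand) and Tnip3 (chr6:65590288-65590397, plus strand). The others are the caspase gene Casp4 (chr9:5308739-5308848, plus strand), the chemokine gene Ccl20 (chr1:83116656-83116765, plus strand), Tnfaip2 (chr12:111442551-111442660, plus strand) and the ligand gene Wnt10b (chr15:98778151-98778260, minus strand).
Nfkbia: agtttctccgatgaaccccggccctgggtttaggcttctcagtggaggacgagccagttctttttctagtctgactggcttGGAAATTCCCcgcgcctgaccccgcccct
Nfkb2: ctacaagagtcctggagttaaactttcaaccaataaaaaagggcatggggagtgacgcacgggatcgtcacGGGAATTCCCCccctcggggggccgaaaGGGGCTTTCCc
Tnip1: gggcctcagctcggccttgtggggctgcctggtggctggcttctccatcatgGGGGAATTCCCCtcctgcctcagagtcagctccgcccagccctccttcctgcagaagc
Tnip3: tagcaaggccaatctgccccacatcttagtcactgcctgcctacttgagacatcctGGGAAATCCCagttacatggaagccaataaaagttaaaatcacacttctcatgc
Casp4: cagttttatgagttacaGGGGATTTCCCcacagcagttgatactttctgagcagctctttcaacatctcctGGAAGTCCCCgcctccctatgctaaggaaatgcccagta
Ccl20: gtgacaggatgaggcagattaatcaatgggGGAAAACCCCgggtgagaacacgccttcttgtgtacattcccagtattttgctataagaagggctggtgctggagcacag
Tnfaip2: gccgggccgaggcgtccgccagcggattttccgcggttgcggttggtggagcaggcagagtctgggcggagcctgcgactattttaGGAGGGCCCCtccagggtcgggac
Wnt10b: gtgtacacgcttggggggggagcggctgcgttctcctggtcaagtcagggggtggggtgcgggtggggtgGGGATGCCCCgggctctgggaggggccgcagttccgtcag

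Of 14 genes of the signalling machinery itself, for IKK subunits, their upstream kinases and Rel proteins, 2 rose and none fell. Over all genes tested 0.899% rose. Above 0 lay 11 of the 14, against 50.7% of all genes, with a median log2 fold change of 0.125. Groups were apart upward in 7, against 9.34% of all genes. Both rises lost their call in each fit with 1 library left out, though without active IKKβ replicate 1 Relb kept a log2 fold change of 1.31 and Nfkb2 of 0.767. Both belong to the non-canonical arm of NF-κB. Relb stood at 11.9, 10.9 and 9.79 CPM in Control and 28.3, 28.7 and 25 CPM with active IKKβ, a change of 1.33 ± 0.22 (adjusted p = 0.0198). Nfkb2 stood at 32.5, 33.5 and 30.1 CPM in Control and 64.1, 56.3 and 52.8 CPM with active IKKβ, 0.85 ± 0.16 (adjusted p = 0.0324); it encodes p100, the precursor of p52. Neither gene's groups overlapped, and the spread within each group was narrow. Ikbkb, the gene of IKKβ, read 82.6, 60.7 and 59.7 CPM in Control and 97.7, 84.6 and 94.1 CPM with active IKKβ, 0.45 ± 0.14 with an adjusted p of 0.206. Its groups were apart but did not pass the test, and these gene-level counts do not separate reads of the ROSA26 allele from those of the gene's own locus. Nfkb1 (0.52 ± 0.13, adjusted p = 0.131) and Rela (0.14 ± 0.10, adjusted p = 0.605), the canonical subunits, did not pass either. Chuk, which encodes IKKα, had a log2 fold change of 0.07, and Map3k14, which encodes the kinase NIK, -0.07.

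All 13 tested IκB proteins and NF-κB feedback genes had a positive log2 fold change, the median was 0.94, and 4 rose. When each of the 6 libraries was left out in turn, Zc3h12a and Tnip3 were called every time, Nfkbia in 4 of the 6 fits and Tnip1 in 1, and 10 to 13 members were positive. Nfkbia stood at 119, 125 and 116 CPM in Control and 264, 223 and 290 CPM with active IKKβ, 1.11 ± 0.17 (adjusted p = 0.00968). Zc3h12a stood at 42.7, 38.5 and 40.3 CPM in Control and 155, 145 and 126 CPM with active IKKβ, 1.81 ± 0.16 (adjusted p = 0.000682); it encodes Regnase-1, a ribonuclease that destroys cytokine mRNAs. The 3 active IKKβ libraries stood well above every Control library for both genes. Zc3h12c, of the same family and outside the list, rose from 6.93, 8.47 and 9.22 to 22.7, 18.7 and 24.8 CPM, 1.42 ± 0.19 (adjusted p = 0.00642). Tnip1 and Tnip3 encode A20-binding inhibitors of NF-κB and differed strongly in size of change. Tnip1 stood at 28.1, 25.1 and 28.2 CPM in Control and 43.5, 51.3 and 48.2 CPM with active IKKβ, 0.81 ± 0.14 (adjusted p = 0.0209). Tnip3 stood at 0.0559, 0.209 and 0.0762 CPM in Control and 5.25, 7.88 and 7.31 CPM with active IKKβ, 5.86 ± 0.66 (adjusted p = 0.00249). Tnip3 was thus nearly silent in Control and Tnip1 was not. Tnfaip3, the gene of A20 itself, read 10.6, 15.1 and 6.48 CPM in Control and 30.3, 24.3 and 25.8 CPM with active IKKβ, 1.32 ± 0.31, and missed the threshold at an adjusted p of 0.0843. Nfkbie (1.51), Nfkbiz (1.11) and Bcl3 (0.94) had groups apart and adjusted p values of 0.0805, 0.214 and 0.288.

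Among 16 tested TRAF and survival genes 2 rose, none fell and the median was 0.262. Birc3 stood at 12.6, 12.8 and 9.18 CPM in Control and 22.7, 28.5 and 31.9 CPM with active IKKβ, 1.26 ± 0.18 (adjusted p = 0.00846); it encodes cIAP2, a ubiquitin ligase that blocks cell death downstream of TNF receptors. Tnfaip2 stood at 44.6, 37.1 and 59.6 CPM in Control and 297, 392 and 434 CPM with active IKKβ, 2.99 ± 0.40 (adjusted p = 0.00642); its product is a TNF-inducible protein. Both had all active IKKβ libraries above all Control libraries. Traf2 and Traf3 had changes of 0.51 and 0.50 with groups apart and adjusted p values of 0.102 and 0.079. In the TNF superfamily none of 25 tested ligands and receptors passed. Above 0 lay 19 of them, against 50.7% of all genes, with a median of 0.84. Groups were apart upward in 12, against 9.34% of all genes.

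Among secreted signals, Cxcl5, Il23a and Ccl20 were near silent in Control and Pthlh and Cxcl16 were not. Cxcl5 (chr5:90759360-90761624, plus strand) encodes a chemokine that draws neutrophils. It gave 1 count over all Control libraries and 448 over the active IKKβ libraries, a ratio of library-scaled counts of 435 with an exact 95% counting interval of 77.8 to 17200 (adjusted p = 0.0037). Il23a stood at 0.168, 0.209 and 0.152 CPM in Control and 4.45, 2.76 and 5.37 CPM with active IKKβ, 4.54 ± 0.51 (adjusted p = 0.00249); it encodes the p19 subunit of IL-23. Ccl20 stood at 0.0559, 0.314 and 0 CPM in Control and 3.36, 1.60 and 2.58 CPM with active IKKβ, 4.38 ± 0.77 (adjusted p = 0.0253); it attracts cells that bear CCR6. All 3 active IKKβ libraries held these transcripts. Pthlh stood at 3.58, 3.50 and 2.63 CPM in Control and 13.1, 16.9 and 17 CPM with active IKKβ, 2.28 ± 0.36 (adjusted p = 0.013); it encodes parathyroid hormone-related protein and was already present in Control. Cxcl16, a membrane-bound chemokine, rose from 8.55, 12 and 9.91 to 40.1, 54.8 and 45.7 CPM, 2.20 ± 0.27 (adjusted p = 0.00389). Its active IKKβ libraries lay more than 3-fold above every Control library. Cxcl1 gave 2 counts in Control and 97 with active IKKβ, a ratio of 47.1 (12.7 to 395), and its adjusted p of 0.0805 did not pass. Of the 8 CXC and 11 CC chemokines tested, 2 and 1 rose, with medians of 1.71 and 0.36. Ccl28 was high in active IKKβ replicate 1 alone, at 10.8, 0.0967 and 0.301 CPM.

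Other cytokine families did not pass. None of 13 tested IL-1 family genes rose or fell, with a median of 0.467. Il1f6, the gene of IL-36α, read 29.4, 16.1 and 127 CPM in Control and 36.8, 195 and 233 CPM with active IKKβ, so it was high in the same 3 libraries that were rich in Krt4 and Krt13. None of 24 genes of the IL-6 family and STAT3 pathway passed, with a median of 0.164. Stat3 itself stood at 174, 157 and 179 and 158, 222 and 239 CPM (0.28 ± 0.15, adjusted p = 0.469). None of 22 interferon-stimulated genes passed, 8 lay above 0 and the median was -0.277. Among receptors for hematopoietic cytokines, Il7r stood at 0.168, 0.314 and 0.381 CPM in Control and 3.31, 3.43 and 3.61 CPM with active IKKβ, 3.53 ± 0.49 (adjusted p = 0.00696). Csf2rb, the shared β chain of the GM-CSF, IL-3 and IL-5 receptors, rose from 2.18, 3.24 and 1.98 to 12.6, 13.2 and 12.3 CPM (2.37 ± 0.46, adjusted p = 0.0374). Its near-identical neighbour Csf2rb2 was also called, at 2.74 ± 0.43, and reads may have been split between the pair.

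Genes of mucosal defence included some of the most highly read rises. S100a8 stood at 1.40, 0.941 and 1.10 CPM in Control and 72, 123 and 185 CPM with active IKKβ, 6.78 ± 0.63 (adjusted p = 0.000688). S100a9 stood at 25.9, 20.9 and 50.8 CPM in Control and 172, 412 and 608 CPM with active IKKβ, 3.61 ± 0.66 (adjusted p = 0.0306). They encode the subunits of calprotectin, a metal-binding antimicrobial complex, and no other of the 14 tested S100 genes passed; the median of that list was -0.245. Chi3l1 stood at 0.615, 1.88 and 2.67 CPM in Control and 59.4, 126 and 174 CPM with active IKKβ, 6.08 ± 0.70 (adjusted p = 0.00263), and it encodes a secreted chitinase-like protein. Lcn2 stood at 0.168, 0.889 and 0.114 CPM in Control and 15.4, 15.2 and 21.7 CPM with active IKKβ, 5.50 ± 0.74 (adjusted p = 0.00642); lipocalin 2 binds bacterial siderophores. Defb3, a β-defensin gene, rose from 0.112, 0 and 0.114 to 0.851, 1.02 and 1.59 CPM (3.79 ± 0.75, adjusted p = 0.0405). In all of these every active IKKβ library lay above every Control library. Of 20 tested antimicrobial and acute phase genes 3 rose, 18 lay above 0 and the median was 2.24. Several members were high in active IKKβ replicate 1 alone, such as Reg3g at 1433, 0 and 0.129 CPM, and without that library the median was 0.766 with 16 of 20 above 0 and 2 rises. Fcgbp, which encodes a mucus protein, rose from 4.42, 6.79 and 6.67 to 53.2, 53.6 and 62.3 CPM (3.24 ± 0.37, adjusted p = 0.00249). Lpo, the gene of lactoperoxidase, was called at 3.58 ± 0.68, and read 0.951, 0.836 and 1.03 CPM in Control and 25.1, 4.21 and 4.64 CPM with active IKKβ, so most of its signal came from active IKKβ replicate 1.

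Neutrophils also make calprotectin, lipocalin 2 and lactoferrin, so the neutrophil list was read beside these genes. Its 7 tested members all lay above 0, where 50.7% of all genes did, with a median of 1.22. The 2 rises were S100a8 and S100a9 themselves. Elane, the gene of neutrophil elastase, gave 0 counts in all 6 libraries, and Mpo, the gene of myeloperoxidase, gave at most 4 counts in any. Cxcr2 read 7.996, 5.436 and 21.15 CPM in Control and 4.02, 19.44 and 28.76 CPM with active IKKβ. Stfa3 read 2.963, 3.554 and 9.868 CPM in Control and 7.093, 11.46 and 9.975 CPM with active IKKβ. Both genes overlapped between groups. The list summed to 40.3, 353 and 92.4 CPM in Control and 2230, 779 and 836 CPM with active IKKβ, most of it S100a8, S100a9 and the lactoferrin gene Ltf. Ltf read 1970, 209 and 0.731 CPM with active IKKβ and 1.45, 320 and 4.65 CPM across Control. The part of neutrophils in these rises was not tested.

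Among 23 tested pattern receptor and inflammasome genes 3 rose, none fell and the median was 0.357; with 1 library left out in turn 1 to 3 rose. Nod2 stood at 20.3, 30.2 and 20.3 CPM in Control and 97.8, 63.4 and 53.1 CPM with active IKKβ, 1.60 ± 0.23 (adjusted p = 0.00728); NOD2 senses bacterial muramyl dipeptide. Casp4 stood at 7.44, 6.79 and 3.24 CPM in Control and 23.6, 18.7 and 19.9 CPM with active IKKβ, 1.84 ± 0.30 (adjusted p = 0.0176); it encodes the caspase that responds to lipopolysaccharide in the cytosol. Irak3 stood at 2.07, 2.40 and 1.91 CPM in Control and 7.14, 6.63 and 9.20 CPM with active IKKβ, 1.85 ± 0.30 (adjusted p = 0.0165); IRAK-M restrains Toll-like receptor signalling. The 3 genes act at different steps, and in each the groups were apart. Of 12 oxidant enzyme genes only Noxo1, which encodes the organizer subunit of the NOX1 oxidase, rose, from 4.19, 1.93 and 1.83 to 25, 18.1 and 23.8 CPM (3.08 ± 0.36, adjusted p = 0.00263). The complement protease gene C1s rose from 17.5, 27.5 and 23.7 to 58.8, 70.9 and 92.8 CPM (1.69 ± 0.33, adjusted p = 0.0398).

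Antigen presentation genes lay mostly above 0, and 2 of either class passed. All 8 tested MHC class II genes had a log2 fold change above 0, with a median of 1.94, and 2 rose. With 1 library left out in turn all 8 stayed above 0, with medians from 1.65 to 2.2 and at most 1 call with edgeR, while in a fit added after seeing the data, with the Krt4 and Krt13 share as a term, 6 rose. Ciita stood at 1.51, 0.836 and 0.648 CPM in Control and 4.11, 4.30 and 3.70 CPM with active IKKβ, 2.02 ± 0.40 (adjusted p = 0.0398); it encodes the master coactivator of class II genes. H2-DMb2, whose product helps load peptides, rose from 0.168, 0.209 and 0.0381 to 1.99, 1.89 and 1.20 CPM (3.62 ± 0.62, adjusted p = 0.0209). Cd74 (65.9, 141 and 50.2 against 340, 341 and 286 CPM) and H2-Aa (27.3, 54.4 and 18.2 against 148, 128 and 116 CPM) had groups apart and adjusted p values of 0.158 and 0.114. Of 16 class I genes 2 rose and the median was 0.565. H2-K1 stood at 183, 259 and 192 CPM in Control and 381, 383 and 369 CPM with active IKKβ, 0.84 ± 0.16 (adjusted p = 0.0365). H2-M2, a non-classical class I gene, gave 1 count in Control and 107 with active IKKβ, a ratio of 104 (18.3 to 4150).

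Several further rises are genes best known from leukocytes. Grouped by known function after their values were seen, and so without a test, 19 called genes are leukocyte receptors or signalling genes, with log2 fold changes from 1.44 to 5.57. Cd207 stood at 3.69, 4.13 and 2.51 CPM in Control and 21.1, 19.8 and 18.1 CPM with active IKKβ, 2.52 ± 0.50 (adjusted p = 0.0414); it encodes langerin, which defines Langerhans cells. Itgax stood at 2.24, 3.03 and 1.41 CPM in Control and 10, 11.5 and 10.8 CPM with active IKKβ, 2.28 ± 0.44 (adjusted p = 0.0391); CD11c marks dendritic cells. Runx3 stood at 0.447, 0.470 and 0.229 CPM in Control and 3.17, 2.90 and 2.71 CPM with active IKKβ, 2.94 ± 0.42 (adjusted p = 0.00745), a transcription factor of lymphocytes and Langerhans cells. Cytip (2.80 ± 0.40), Spn (2.78 ± 0.55), Havcr2 (2.70 ± 0.37), Pik3cd (2.01 ± 0.37) and Arhgdib (1.44 ± 0.21) rose as well. All 5 are known from lymphoid or myeloid cells. Pdcd1, the gene of PD-1, gave 1 count in Control and 67 with active IKKβ, a ratio of 65.1 (11.3 to 2610). Its adjusted p was 0.0467, and it was called in 0 of the 6 fits with 1 library left out. In bulk tissue more or fewer cells of a type and more or less RNA per cell cannot be told apart.

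The marker lists were read beside these rises. Of 12 tested dendritic and Langerhans cell markers 2 rose, against 0.899% of all genes, and 7 lay above 0, against 50.7%. Groups were apart upward in 5, against 9.34% of all genes. Neither rise passed with any 1 library left out. Without active IKKβ replicate 1 their log2 fold changes were 2.46 for Cd207 and 2.33 for Itgax. Flt3 (3.43) and Cd86 (2.03) missed with adjusted p values of 0.0579 and 0.156. The summed level of that list was 213 to 261 CPM in Control and 219 to 270 CPM with active IKKβ, most of it from Fscn1 and Epcam, which the epithelium also makes. The macrophage and monocyte list summed to 88.4, 166 and 124 CPM in Control and to 168, 185 and 219 CPM with active IKKβ, with 0 of 11 tested genes called. T and NK cell markers summed to 1.96, 7.0 and 2.44 CPM against 11.8, 5.46 and 4.56 CPM, with 7 of 7 tested genes above 0 and none called. Fibroblast, smooth muscle, endothelial and adipocyte lists held no called gene and overlapped between groups. Skeletal muscle markers varied widely within both groups, with 73, 315 and 8.38 CPM in Control and 880, 711 and 56.5 CPM with active IKKβ. Their part in the rises was not tested.

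**Figure D2:**
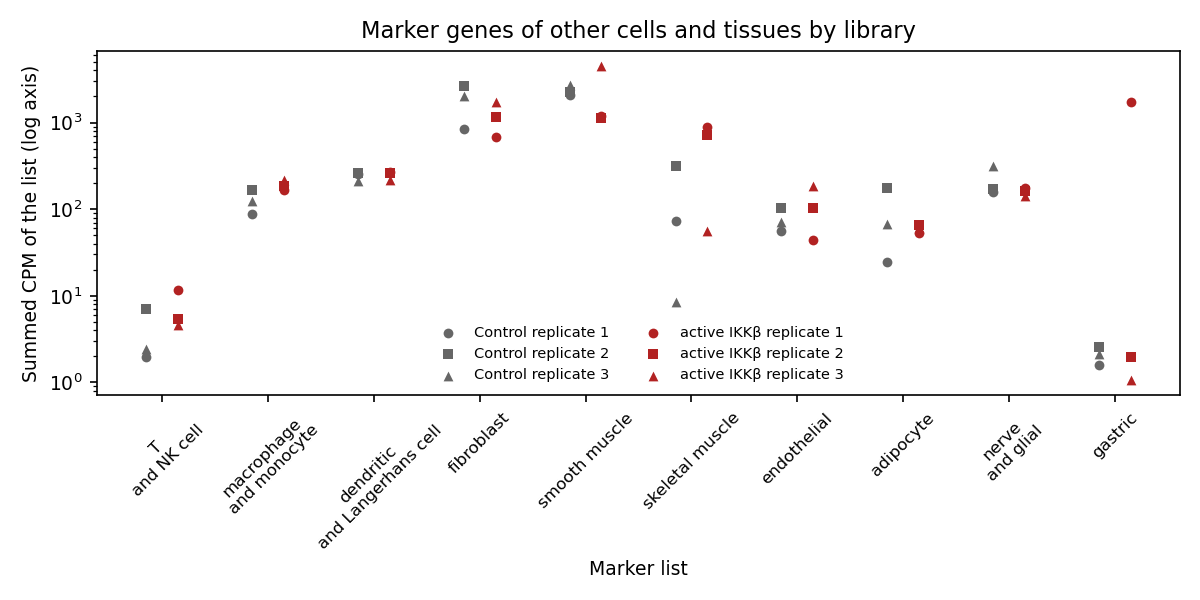
Summed CPM of 10 marker lists on a log axis, 1 point per library, Control in grey and active IKKβ in red, with the symbol giving the replicate. The lists plotted overlap between the groups, apart from the macrophage list, where all 3 active IKKβ points lie at 168 CPM or above and the Control points at 166 CPM or below, and the gastric list reaches 1710 CPM in active IKKβ replicate 1 alone.

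The largest fitted change of the 127 rises was that of Irx4 (chr13:73260479-73269608, plus strand), a homeobox gene best known from the heart ventricle. It gave 1 count over the Control libraries and 511 over the active IKKβ libraries, at 8.80, 8.12 and 6.75 CPM, a ratio of 497 with an exact 95% counting interval of 88.7 to 19700 (adjusted p = 0.000688). Among 27 squamous transcription factors it was the only call, and the median of the list was 0.105. Trp63 (-0.07, adjusted p = 0.876) and Sox2 (-0.30, adjusted p = 0.573), which hold squamous identity, did not pass. Irx3, of the same family, went from 8.55, 6.79 and 10.9 to 12.5, 14.3 and 16.6 CPM with an adjusted p of 0.419. Pou3f1 (2.02 ± 0.40), Glis3 (3.80 ± 0.68), Foxs1 (3.21 ± 0.55) and Etv6 (0.65 ± 0.09) are other transcription factor genes that rose. The last is an ETS repressor with tight groups, 55.7, 55.5 and 60.3 against 89.2, 84.5 and 94.8 CPM (adjusted p = 0.00696).

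Of 24 tested Wnt and Notch genes 3 rose, all of them ligands, and the median was 0.07. Wnt10b (chr15:98770712-98778150, minus strand) stood at 0.447, 0.366 and 0.305 CPM in Control and 8.51, 8.66 and 8.08 CPM with active IKKβ, 4.49 ± 0.42 (adjusted p = 0.000688). Its active IKKβ libraries differed from each other by less than 10% of their level. Wnt5a stood at 4.81, 6.38 and 4.57 CPM in Control and 15.2, 26.5 and 22.1 CPM with active IKKβ, 2.02 ± 0.25 (adjusted p = 0.00389). Jag1 stood at 106, 85.4 and 99.6 CPM in Control and 169, 156 and 186 CPM with active IKKβ, 0.81 ± 0.14 (adjusted p = 0.0216); it encodes a Notch ligand. Wnt10b signals mainly through β-catenin and Wnt5a mainly outside it. Lgr6, a receptor for R-spondins, rose from 0.168, 0.418 and 0.152 to 2.74, 1.45 and 2.71 CPM (3.22 ± 0.62, adjusted p = 0.0374). Lrrc32, whose product GARP holds latent TGF-β on the cell surface, rose from 3.63, 8.68 and 5.45 to 49.3, 62 and 73.8 CPM (3.38 ± 0.36, adjusted p = 0.00165). The guidance receptor genes Epha4 (1.08 ± 0.21) and Robo1 (0.94 ± 0.19) rose by smaller amounts.

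The keratin genes that rose were Krt16, Krt6b, Krt84 and Krt10. Krt16 stood at 4.42, 6.85 and 9.87 CPM in Control and 132, 234 and 242 CPM with active IKKβ, 4.84 ± 0.65 (adjusted p = 0.00642). Krt6b stood at 13.3, 51.7 and 58.3 CPM in Control and 314, 1160 and 1267 CPM with active IKKβ, 4.47 ± 0.90 (adjusted p = 0.0449). Both are keratins of wounded and hyperproliferative epithelium. With Krt84 (2.99 ± 0.60, adjusted p = 0.0442) they made 3 rises among 10 wound keratins and partners, whose median was 1.37. With 1 library left out in turn Krt16 was called in 5 of the 6 fits, Krt6b in 1 and Krt84 in 0, none of them without Control replicate 1. Krt10 stood at 59.7, 24 and 38 CPM in Control and 225, 316 and 505 CPM with active IKKβ, 3.10 ± 0.47 (adjusted p = 0.0102); it is a keratin of epidermis and of cornifying epithelium. Its partner Krt1 read 80.2, 22.8 and 52.4 CPM in Control and 243, 186 and 640 CPM with active IKKβ, 2.78 ± 0.86, and did not pass (adjusted p = 0.212). Krt10 was the only call among 12 layer keratins: Krt5 (-0.21 ± 0.26), Krt14 (-0.06 ± 0.25), Krt4 (0.38 ± 0.72) and Krt13 (0.38 ± 0.59) had adjusted p values of 0.776, 0.949, 0.86 and 0.827. None of 17 basal layer and matrix anchor genes passed either.

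The cornified envelope genes leaned upward, with 28 of 30 tested members above 0 and a median of 0.819, and 2 rose. Single libraries moved this: the median was 0.53 with 22 above 0 and 0 rises without Control replicate 1, 0.44 without Control replicate 2, 1.78 without Control replicate 3 and 0.436 without active IKKβ replicate 2. Sprr2d stood at 0.224, 0.0523 and 0.419 CPM in Control and 10.5, 52 and 94.3 CPM with active IKKβ, 7.70 ± 1.07 (adjusted p = 0.00696). Sprr2b stood at 0.559, 0.418 and 1.14 CPM in Control and 3.88, 8.37 and 20.4 CPM with active IKKβ, 3.91 ± 0.68 (adjusted p = 0.0244). Both encode small proline-rich proteins that are cross-linked into the envelope, and reads may be split among the near-identical Sprr2 genes. Their levels in active IKKβ replicate 1, poorest in Krt4 and Krt13, were below those of replicates 2 and 3 and above Control. Of 26 barrier lipid and peptidase genes 23 lay above 0, with a median of 0.432. Spink12, a protease inhibitor gene, was the only call among them, rising from 0.671, 0.105 and 0.457 to 13.4, 44.1 and 63.1 CPM (6.59 ± 1.16, adjusted p = 0.0253). With the share of Krt4 and Krt13 as a term of the model, 19 of the 30 envelope genes lay above 0 with a median of 0.411, and 4 rose. In that fit 134 of the 135 calls over all genes were kept and 399 genes were called in all.

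**Figure D3:**
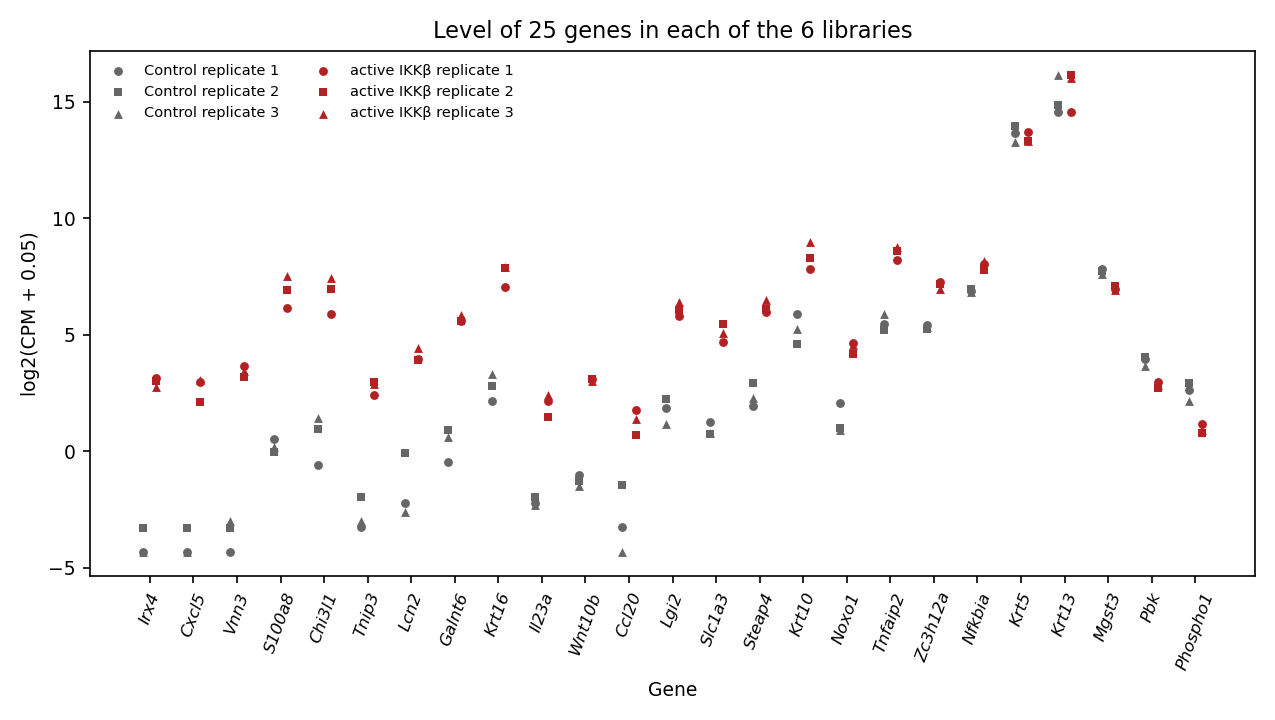
Level of 25 genes in each library as log2(CPM + 0.05), Control in grey and active IKKβ in red, with the symbol giving the replicate. Irx4, Cxcl5 and Vnn3 are near the floor in Control and the 3 red points of Wnt10b and Galnt6 fall close together, while Krt5 and Krt13 overlap and Mgst3, Pbk and Phospho1 lie lower with active IKKβ.

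Ion channels, transporters and surface receptors made a further set of 11 rises, gathered by known function after their values were seen and not tested as a set. Slc1a3 stood at 2.35, 1.62 and 1.68 CPM in Control and 25.6, 43.6 and 33.7 CPM with active IKKβ, 4.19 ± 0.34 (adjusted p = 0.000577); it encodes a glutamate and aspartate transporter. Kcnip3 stood at 4.14, 2.56 and 2.71 CPM in Control and 12.8, 22.9 and 23.4 CPM with active IKKβ, 2.65 ± 0.33 (adjusted p = 0.00444), a calcium-binding partner of potassium channels. For both genes the lowest active IKKβ library held at least 3 times the highest Control library. P2rx2 (2.88 ± 0.48) and P2rx5 (2.08 ± 0.32) encode ATP-gated channels, and Hrh1 (2.16 ± 0.42) a histamine receptor. Cftr, the chloride channel gene, gave 1 count in Control and 65 with active IKKβ, a ratio of 63.2 (10.9 to 2530), and Kcnf1 2 and 60 counts, a ratio of 29.2 (7.73 to 246). Htr7, a serotonin receptor gene, gave 0 counts in Control and 47 with active IKKβ and so was at least 15.2-fold higher, taking 3 counts over the group as the floor. Adjusted p values were 0.0391 for Cftr and 0.0306 for Htr7. With 1 library left out in turn Cftr and Htr7 were called in 0 of the 6 fits and Kcnf1 in 2.

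Some genes of other kinds had very small p values. Lgi2 stood at 3.58, 4.76 and 2.21 CPM in Control and 55.7, 66.3 and 85 CPM with active IKKβ, 4.30 ± 0.34 (adjusted p = 0.000577). Rassf6 stood at 1.01, 1.10 and 0.724 CPM in Control and 8.75, 8.95 and 9.16 CPM with active IKKβ, 3.25 ± 0.28 (adjusted p = 0.000682). Lgi2 encodes a secreted leucine-rich repeat protein and Rassf6 a Ras-association domain protein. Trnp1 stood at 12.8, 14.2 and 11.3 CPM in Control and 28.9, 35.6 and 37.2 CPM with active IKKβ, 1.41 ± 0.15 (adjusted p = 0.00165); it encodes a nuclear protein known from neural progenitors. All 3 genes had groups far apart for the spread within them. Stra6, which encodes a retinol uptake receptor, rose from 5.65, 3.61 and 1.03 to 16.8, 81.1 and 58.4 CPM (3.95 ± 0.76, adjusted p = 0.0374), with wide spread in both groups. Cxadr, the gene of a junctional adhesion protein, rose by a small and even amount, from 46.5, 50.9 and 48.5 to 78, 105 and 93 CPM (0.92 ± 0.12, adjusted p = 0.00615). None of 29 desmosome and tight junction genes on the list passed.

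The remaining rises were mostly smaller and of mixed function. Several encode proteins of intracellular signalling. Vav3 stood at 135, 122 and 121 CPM in Control and 166, 212 and 199 CPM with active IKKβ, 0.61 ± 0.11 (adjusted p = 0.0324); it encodes a guanine nucleotide exchange factor. Rgs12 stood at 181, 147 and 163 CPM in Control and 230, 253 and 278 CPM with active IKKβ, 0.63 ± 0.12 (adjusted p = 0.0357), a regulator of G protein signalling. Pde4b stood at 11.9, 13.1 and 12.2 CPM in Control and 28.8, 23.1 and 33.4 CPM with active IKKβ, 1.20 ± 0.22 (adjusted p = 0.0317); the enzyme breaks down cyclic AMP. Vav3 and Rgs12 were well expressed in Control, so these are small changes of abundant transcripts. Prkar2b (1.03 ± 0.18), a regulatory subunit of protein kinase A, Ptprk (0.93 ± 0.16), a receptor phosphatase, Dock11 (1.68 ± 0.24), an exchange factor, and Rab32 (1.31 ± 0.20), a vesicle GTPase, rose as well. Herpud1 stood at 137, 136 and 119 CPM in Control and 211, 213 and 206 CPM with active IKKβ, 0.68 ± 0.13 (adjusted p = 0.0329); it acts in degradation of proteins from the endoplasmic reticulum. Mfge8 stood at 128, 118 and 85.7 CPM in Control and 212, 246 and 226 CPM with active IKKβ, 1.05 ± 0.21 (adjusted p = 0.0434); its product bridges dying cells to phagocytes. Skint1 stood at 4.70, 4.08 and 3.09 CPM in Control and 14.1, 12.9 and 11.8 CPM with active IKKβ, 1.71 ± 0.31 (adjusted p = 0.0307); it is known from thymic and skin epithelium, where it shapes a γδ T cell lineage. Each of the 3 had groups that did not overlap. Ppargc1a stood at 0.503, 0.470 and 0.686 CPM in Control and 1.75, 1.55 and 1.76 CPM with active IKKβ, 1.59 ± 0.31 (adjusted p = 0.0409), the gene of the coactivator PGC-1α, at a low level. Sh3kbp1, an adaptor of receptor endocytosis, rose from 2.96, 4.76 and 5.26 to 14.2, 35 and 39.6 CPM (2.77 ± 0.40, adjusted p = 0.00837) and was lowest in active IKKβ replicate 1. The class I-like gene H2-M5 gave 2 counts in Control and 68 with active IKKβ, a ratio of 33.0 (8.8 to 278), and 5830411N06Rik gave 0 and 99 counts and so was at least 32.1-fold higher over the same floor.

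Enzyme genes that rose act on glycans, lipids and metals, among other substrates. Galnt6 stood at 0.671, 1.83 and 1.49 CPM in Control and 49, 48.9 and 58 CPM with active IKKβ, 5.27 ± 0.61 (adjusted p = 0.00263); it starts mucin-type O-glycans, and it was the only call among 21 mucin and O-glycosylation genes. Steap4 stood at 3.80, 7.58 and 4.88 CPM in Control and 62.5, 69.4 and 91.2 CPM with active IKKβ, 3.78 ± 0.34 (adjusted p = 0.000682); it encodes a metalloreductase. Vnn3 (chr10:23851462-23869843, plus strand), a vanin gene of the pantetheinase family, gave 3 counts in Control and 704 with active IKKβ, a ratio of 228 (77.7 to 1110; adjusted p = 0.000898). Steap4 and Vnn3 were the 2 rises among 17 STEAP, vanin and iron genes. Cyp7b1, an oxysterol hydroxylase gene, rose from 2.12, 2.98 and 1.94 to 14, 8.03 and 11.9 CPM (2.27 ± 0.30, adjusted p = 0.00609). Hpgds, the gene of hematopoietic prostaglandin D synthase, was called at 3.18 ± 0.60, with 10.5, 4.45 and 4.60 CPM in the active IKKβ libraries, so replicate 1 held more than the others. Lists with no called gene in either direction included the EGF family (15 genes tested, median 0.226), matrix proteases and inhibitors (18, median 0.273), Serpinb inhibitors (16, median 0.23), cholesterol and fatty acid synthesis (27, median 0.295) and circadian and AP-1 genes (26, median -0.074).

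The 8 genes that fell had a median log2 fold change of -1.1. Phospho1 (chr11:95824499-95832140, plus strand) stood at 6.09, 7.53 and 4.42 CPM in Control and 2.18, 1.69 and 1.85 CPM with active IKKβ, -1.65 ± 0.25 (adjusted p = 0.0111); it encodes a phosphatase best known from bone mineralization. Gdnf stood at 6.88, 6.85 and 6.48 CPM in Control and 3.40, 2.71 and 1.93 CPM with active IKKβ, -1.33 ± 0.26 (adjusted p = 0.0374), a neurotrophic factor gene. Mgst3 stood at 224, 215 and 194 CPM in Control and 127, 137 and 121 CPM with active IKKβ, -0.72 ± 0.12 (adjusted p = 0.0205), a microsomal glutathione transferase gene. In each of the 3 the active IKKβ libraries lay below every Control library. Mgst3 was the only call among 35 glutathione and xenobiotic genes, of which 10 lay above 0, with a median of -0.262. Plb1, a phospholipase gene, fell from 27.5, 22.1 and 20.1 to 8.28, 11.8 and 11.1 CPM (-1.16 ± 0.19, adjusted p = 0.019). Gng10, a G protein γ subunit gene (-0.59 ± 0.10), and Dgcr6 (-0.64 ± 0.11) fell by less than 2-fold. The calls of falls depended on which libraries were in the fit. With edgeR 0 genes fell without Control replicate 1, without Control replicate 2 or without active IKKβ replicate 3, and 38 fell without Control replicate 3.

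Pbk and 2810417H13Rik, the remaining falls, are proliferation genes. Pbk stood at 15.4, 16.4 and 12.5 CPM in Control and 7.85, 6.48 and 7.09 CPM with active IKKβ, -1.05 ± 0.17 (adjusted p = 0.0147); it encodes a mitotic kinase. 2810417H13Rik stood at 27.6, 32.8 and 19.2 CPM in Control and 13.6, 10.1 and 11.6 CPM with active IKKβ, -1.17 ± 0.23 (adjusted p = 0.0391); RefSeq now names it Pclaf, for a PCNA-associated factor. Both cell cycle lists lay below 0 in this contrast. All 28 tested genes of G2 and mitosis were below 0, where 49.3% of all genes were, with a median of -0.625. Groups were apart downward in 19 of them, against 8.21% of all genes, and 1, Pbk, fell. All 35 replication genes were below 0, with a median of -0.51. Groups were apart downward in 11 of them, against the same 8.21%, and none fell. Tk1 was the nearest, at 48.8, 45.8 and 24.7 CPM in Control and 21, 14 and 15.4 CPM with active IKKβ (-1.24 ± 0.26, adjusted p = 0.0551). Cdk1 read 50.4, 58.8 and 39.6 and 37.8, 26.7 and 18.8 CPM (-0.84 ± 0.26, adjusted p = 0.212). With each of the 6 libraries left out in turn, every mitosis gene stayed below 0 with medians from -0.78 to -0.471. The replication medians ran from -0.677 to -0.328, with 2 genes above 0 without Control replicate 2, 3 above 0 without active IKKβ replicate 2 and none in the others, and 5 fell without Control replicate 3. With the Krt4 and Krt13 term all members of both lists were below 0. Genes of 1 list move together within a library, so these counts are not independent observations. Summed CPM of the mitosis list overlapped between groups: 895, 1170 and 1080 in Control and 897, 692 and 553 with active IKKβ. With Stat3 loss it summed to 1310, 1550 and 976, and with both changes to 1190, 1100 and 1760. The replication list summed to 1600, 1920 and 1110 in Control and 1100, 952 and 1190 with active IKKβ. With Stat3 loss it summed to 837, 719 and 897, and with both changes to 675, 699 and 601.

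**Figure D4:**
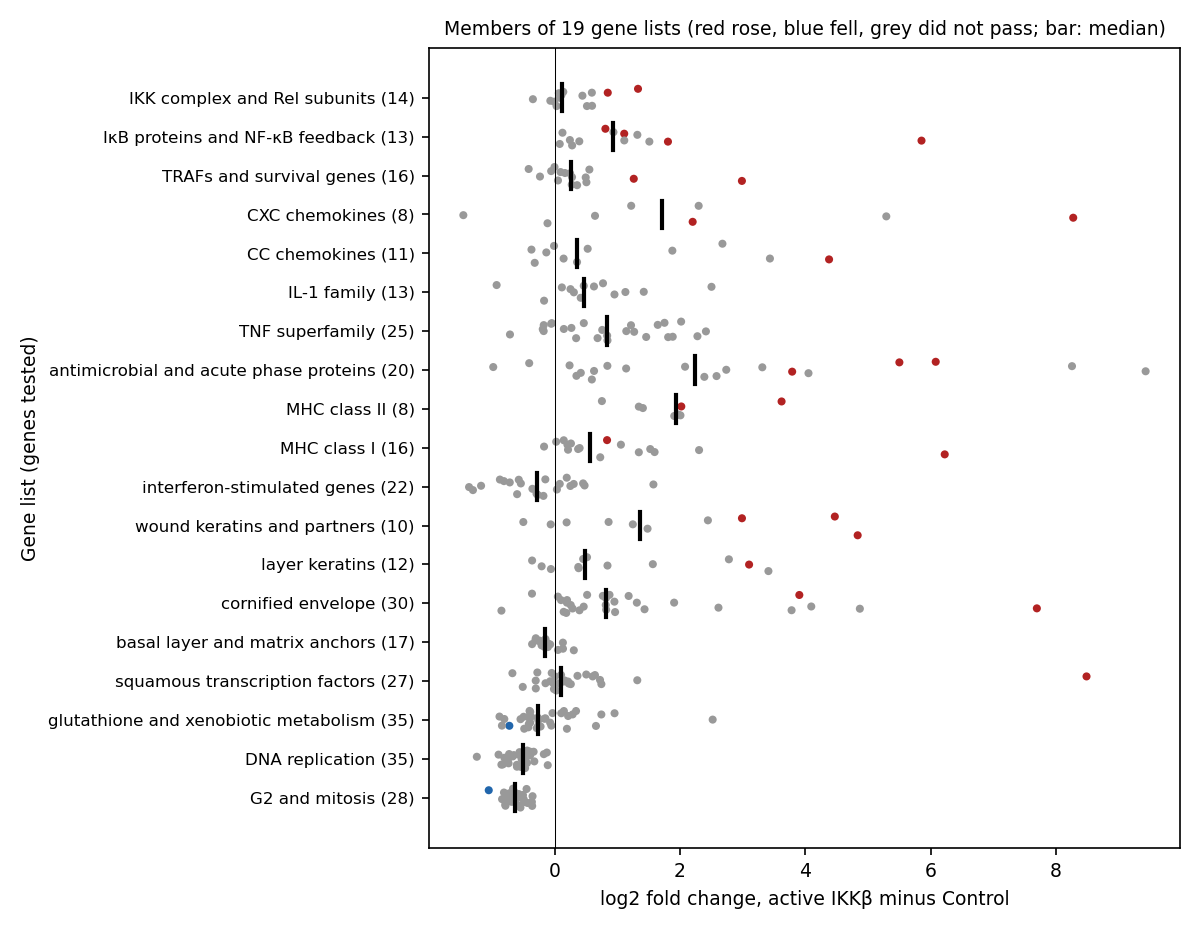
Log2 fold change of each tested member of 19 gene lists, with the number tested in brackets, red where the gene rose, blue where it fell, grey where it did not pass, and a bar at the list's median. The IκB and feedback genes and the MHC class II genes lie wholly above 0, and the replication and mitosis genes wholly below it. Basal and interferon lists sit around 0 or just below.

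The active IKKβ allele could be read again in the libraries with Stat3 deleted, whose levels do not enter the first fold change. They do enter the filter, the scaling and the estimate of spread behind the 135 calls, and with the 6 libraries of the first contrast fitted alone 61 genes were called and 56 of the 135 kept. There both groups carried Cre and floxed Stat3. Of the 127 genes that rose, 125 had a log2 fold change above 0 there, where 52.1% of all genes did. Groups were apart upward in 112 of them, against 6.06% of all genes, and 52 were called higher, against 0.41%. Their median there was 1.8 against 2.65 in the contrast that chose them. Wnt10b stood at 0.676, 1.01 and 0.273 CPM with Stat3 loss and 6.36, 10.4 and 10.8 CPM with active IKKβ and Stat3 loss, a change of 3.78 (adjusted p = 0.00242). Slc1a3 stood at 1.53, 2.20 and 1.04 and 21.8, 35.4 and 39.1 CPM, 4.32 (adjusted p = 0.000928). Nfkbia stood at 109, 93.4 and 103 and 189, 281 and 287 CPM, 1.31 (adjusted p = 0.0056). In these genes the second set gave groups that did not overlap, as the first did. Ccl20 stood at 0.0451, 0.0879 and 0.273 and 9.76, 10.6 and 12.6 CPM, 6.35 against 4.38, with an unadjusted interaction p of 0.125.

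Other genes had a smaller fitted change on the Stat3-deleted background, and none of these differences passed after adjustment. S100a8 read 1.89, 2.24 and 1.69 CPM with Stat3 loss and 10.8, 11.7 and 41.9 CPM with both changes, 3.46 against 6.78, with an unadjusted interaction p of 0.00121. The 2 genes that rose in the contrast and were not above 0 there were Irak3 and Kcna7. Irak3 read 2.88, 3.51 and 1.75 and 1.95, 2.90 and 2.09 CPM, -0.23, and Kcna7 0.631, 0.659 and 0.873 and 0.150, 0.290 and 0.314 CPM, -1.50. No gene passed the interaction test after adjustment with edgeR, in which the smallest adjusted p was 0.837, and 658 genes, 4.66%, had an unadjusted p below 0.05. Among the genes that rose, 100 of 127 had an interaction below 0 and 24 an unadjusted p below 0.05, and both counts are affected by choosing the genes for their rise. All 8 genes that fell were below 0 there, where 47.9% of all genes were, with a median of -0.106 and none called, against 0.0495% of all genes. Phospho1 was the nearest to the first contrast, at 7.84, 6.72 and 5.73 and 3.40, 2.85 and 3.14 CPM, -1.11 (adjusted p = 0.11), whereas Pbk gave -0.04. Over all genes tested the changes in the separate sets had a Pearson r of 0.224, given as a description since genes are not independent.

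**Figure D5:**
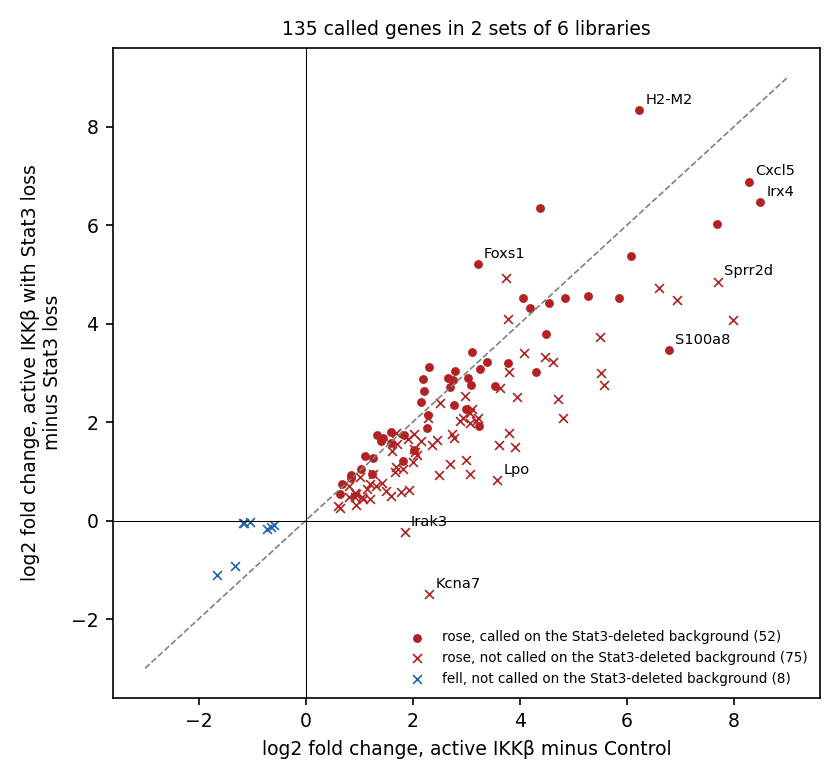
Log2 fold change of the 135 called genes with Stat3 intact (horizontal) and with Stat3 deleted (vertical), red for rises and blue for falls, filled where the gene was also called in the second set and crossed where it was not; the dashed line marks equal change. Of the 127 red points 125 lie above 0 on the vertical axis and 100 below the dashed line, and 6 of the 8 blue points lie between -0.17 and 0 on it, with Gdnf and Phospho1 lower.

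Within the active IKKβ group the genes that rose had a median coefficient of variation of 16.7% over the 3 libraries. The smallest ratio of the lowest active IKKβ library to the highest Control library among them was 1.23. Replicate 1 was the lowest of the 3 in 59 genes, replicate 2 in 37 and replicate 3 in 31, and they were the highest in 39, 33 and 55. Replicate 1 held less than 0.5 times the mean of the others in 10 of the 127: Sprr2d, Sprr2b, Spink12, S100a8, S100a9, Chi3l1, Krt6b, Stra6, Sh3kbp1 and Hrh1. It held more than 2 times that mean in 4: Lpo, Cd163l1, Hpgds and 5830411N06Rik. Leaving out any 1 of the 6 libraries gave between 42 and 79 rises, and 37 genes, all of them rises, were called in each of those 6 fits. Defb3 and Jag1 were called in 0 of these fits and S100a9 in 1, that without active IKKβ replicate 1. The medians of the Serpinb, desmosome, squamous transcription factor, growth factor, circadian, and Wnt and Notch lists changed sign in at least 1 of the 6 fits. So did those of the esophageal epithelium, mast cell and eosinophil, fibroblast, smooth muscle, endothelial, adipocyte, nerve and gastric marker lists.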

How the data were processed

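Per the submitters' processing notes, reads were handled with cutadapt 1.13, STAR, HTSeq 0.6.1p1 and DESeq2 on mm10, and the deposited values are raw read counts per gene symbol, 1 table per library. Strand setting and annotation are not given in the sources used here. From these counts, R 4.3.3 and edgeR 4.0.16 were used: filterByExpr over the 4 groups of 12 libraries kept 14134 of 23337 symbols, TMM scaled the libraries, and a robust quasi-likelihood fit with a term per group tested active IKKβ minus Control. A gene was called at a Benjamini-Hochberg adjusted p below 0.05, with edgeR unless DESeq2 1.42.0 is named. The SE was taken from the fold change and its F statistic. The Control and active IKKβ libraries held 16.3 to 30.2 times 1e6 counts, and the 3 libraries a group also limit the precision.

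Where Control held 1 to 3 counts in all, the ratio of counts is given with an exact 95% interval, and where it held 0 a bound from a floor of 3 counts over the group; both cover counting error only. On simulated counts for active IKKβ minus Control (13979 genes) 42.4% of 2-fold, 80.6% of 4-fold and 87.7% of 8-fold changes were called, and 7 of 13781 unchanged genes. Those counts were drawn independently for each gene from 1 mean profile over all 12 libraries. They therefore lack the differences in Krt4 and Krt13 share between libraries, and these rates may not carry over to the real counts. No 2 libraries within Control or within active IKKβ were copies, and no other pairs were checked. Gene positions come from GENCODE M21 (mm10).

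The contrast and the gene lists were chosen with earlier results of these data known. The genes named are the 8 falls, the 25 largest and 15 surest rises with average log2 CPM of at least 0, up to 5 genes of each list and a fixed set of pathway genes; others, such as Zc3h12c, Stra6, Cxadr and those of the paragraph on remaining rises, were chosen after their values were seen. Alternatives tried were other scaling, filters, DESeq2, fewer libraries and a replicate block. Single libraries were not screened for outlying values, since groups hold 3.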

Additional observations from a re-analysis of the deposited data

How the results depend on the processing

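No called gene changed sign in any of the 17 alternative fits, but groups that did not overlap left little room for that. With 1 library left out the calls kept ran from 41 of the 135, without Control replicate 1, to 76, without active IKKβ replicate 1. Against 135 calls (127 rises, 8 falls), library totals without scaling gave 66 (64, 2), a scaling that moved the median of all genes by -0.0708, DESeq2 442 (323, 119), the 6 libraries alone 61 (61, 0), and leaving out the 2 libraries with the highest gastric marker sums 83 (75, 8). Leaving out 1 library gave 42 to 102 calls, 42 to 79 rises and 0 to 38 falls; the lowest came without Control replicate 1, the most falls without Control replicate 3. Alternatives added after seeing the data gave 19 (19, 0) without replicate 1 of all 4 groups and 399 (306, 93) with the Krt4 and Krt13 share as a term. Fewer libraries were fitted in the smaller fits; the cause of the other shifts was not tested. With a replicate block 173 genes were called, 151 higher and 22 lower. Same-numbered libraries had deviations correlated at 0.272, -0.0437 and 0.42, and only replicate 3 matched its own number best. With 3 libraries a group this cannot show whether the numbers pair the samples, so pairing is unknown. Other size factors, both filters and the fit without robust estimation gave 122 to 136 calls. With the looser promoter motif 75 in place of 23 genes that rose held a match. Genes near 1 count in Control have folds that this depth bounds poorly.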
